A study of Mus musculus with 8 samples.

Results

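The transcripts of 10 genes by which resident kidney macrophages are commonly recognised, C1qa, C1qb, C1qc, Csf1r, Mrc1, Adgre1, Cx3cr1, Cd163, Mertk and Mpeg1, were followed in whole kidneys of NEKO mice and their controls. The genes form a list of names, with no threshold on a measured value, that was drawn up with earlier results of these data known. Probes were matched to them by transcript accession. All 10 had a probe that passed the filter on dim probes, out of 19593 features tested, of which 13566 were named genes. None of the 10 passed the filter through the NEKO arrays alone.

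Resident kidney macrophages are long-lived phagocytes that lie between the tubules and the capillaries, take up debris and immune complexes, and depend on signalling through the CSF1 receptor. In the kidney they are a main source of the 3 chains of C1q, the recognition molecule of the classical complement pathway. They also carry scavenger and clearance receptors, such as the mannose receptor, CD163 and MERTK, and the adhesion receptor encoded by Adgre1. Monocytes and dendritic cells share part of this programme.

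Kidney RNA from 8 mice aged 8 weeks was measured on 8 single-colour arrays, 1 array for each mouse. The 4 NEKO mice (2 females, 2 males) had the genotype Keap1-/-::Nrf2Flox/Flox::K5-Cre, in which Keap1 is absent from the whole body and the Keratin5 promoter drives Cre in squamous epithelium, so that floxed Nrf2 is lost there and remains in cells that never expressed Cre. The controls were 1 female K1 mouse (Keap1+/-::Nrf2Flox/Flox, without Cre) and 3 K1Cre mice (Keap1+/-::Nrf2Flox/Flox::K5-Cre, 1 female and 2 males). All 8 mice were therefore homozygous for floxed Nrf2, every control was heterozygous for Keap1, and the background was a mixture of 129Sv/J and C57BL/6J. The single control without Cre is control replicate 1, and the replicate numbers run over both groups.

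Levels are given as log2 of the background-subtracted signal less the array's own 75th percentile, so that 0 is the 75th percentile and a difference of 1 is a 2-fold difference. Differences are NEKO minus control on that scale, from limma with genotype and sex in the model, and a gene was called at a Benjamini-Hochberg adjusted p under 0.05 over all 19593 features. The share of probes well above background ran from 61.7% to 65.7% over the arrays. Keap1 itself was 1.84 ± 0.07 (SD, n = 4) in control kidneys and 0.20 ± 0.17 (SD, n = 4) in NEKO kidneys (adjusted p = 0.0046 from limma), the direction that the labels imply. Tubular transcripts for megalin, Lrp2, and uromodulin, Umod, lay far above the 75th percentile in both groups. All females shared 1 slide and all males another, which makes sex and slide one split that cannot be told apart. On both slides the controls took positions 1 and 2 and the NEKO mice positions 3 and 4, so position and genotype cannot be told apart either. The p-values measure the spread between these mice, and in whole tissue fewer macrophages and less RNA per macrophage cannot be told apart.

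None of the 10 macrophage genes was called between NEKO and control kidneys. Over all features 44 were called, which is 0.225%. None of the 10 reached an unadjusted p under 0.05 in limma, against 18% of all features, and the unpaired comparison named in the study's methods also gave 0 without adjustment, against 11.3%. In no gene did the 4 NEKO values and the 4 control values separate without overlap, against 9.27% of all features, or 3.88% when only features higher in every NEKO mouse are counted. The difference was above 0 in 7 of the 10 genes and below 0 in C1qb, C1qc and Csf1r, with a median of 0.19 beside a median of -0.03 over all features. The adjusted p-values of the 10 genes ran from 0.311 for Cd163 to 0.968 for C1qa. Under every alternative processing that was run 0 of these genes were called, out of 10, or out of 9 when detection on all 8 arrays was required, which left out Cd163.

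**Figure D1:**
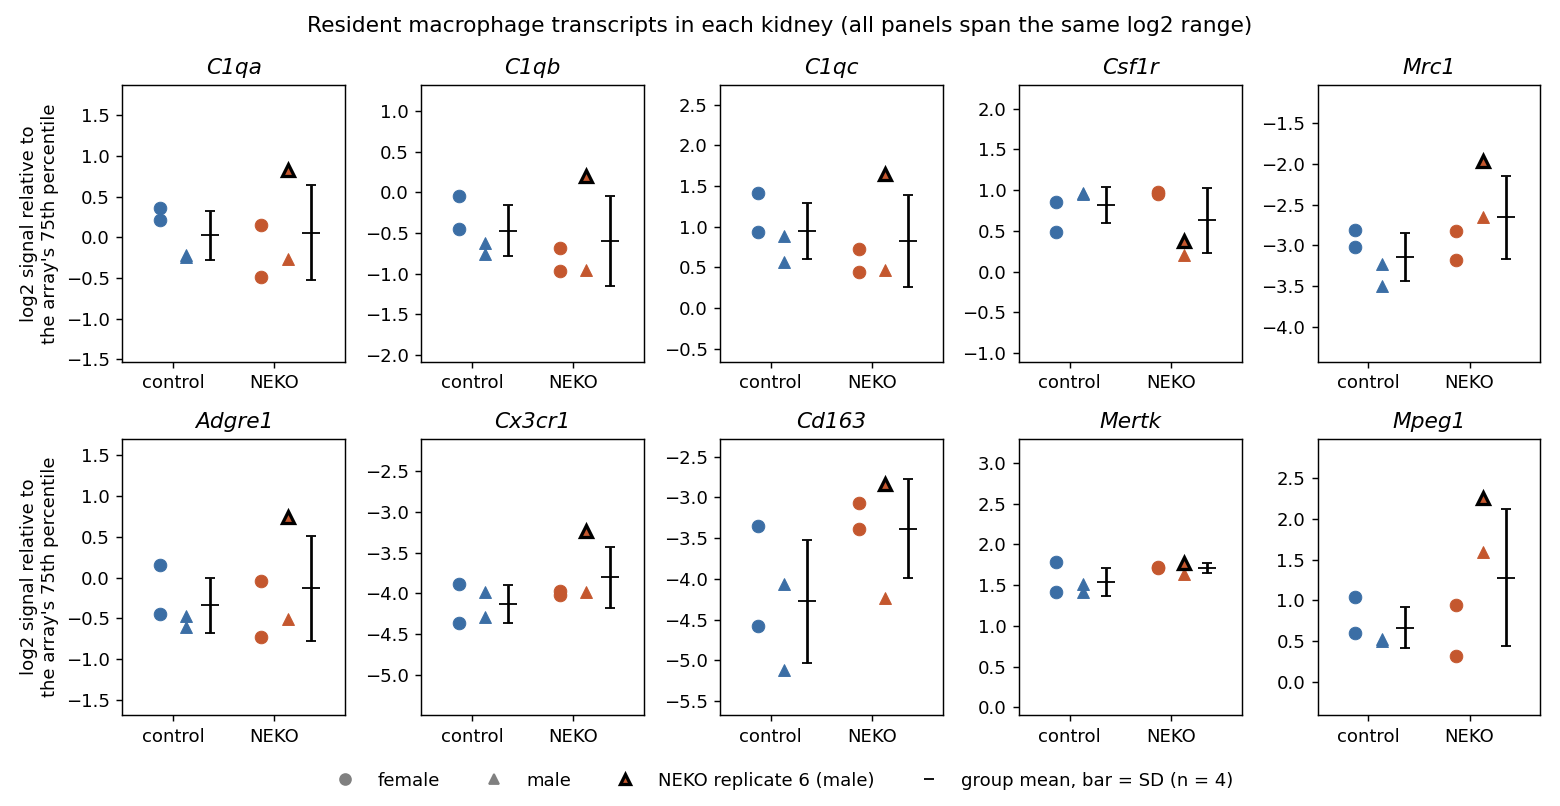
Level of each of the 10 genes in each kidney, on the log2 scale relative to the array's 75th percentile (y axis), for controls (blue) and NEKO mice (orange); circles are females, triangles are males, the outlined triangle is NEKO replicate 6, and the black bar beside each group is its mean with the SD (n = 4). The groups overlap in all 10 panels, and NEKO replicate 6 is the highest of the 8 kidneys in 8 of them.

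The 3 C1q chains gave nearly the same picture in each mouse. C1qa, the A chain, was 0.21 and 0.36 in the control females, -0.22 and -0.24 in the control males, -0.49 and 0.15 in the NEKO females, and -0.27 and 0.83 in the NEKO males. C1qb, the B chain, was -0.45 and -0.05 in the control females, -0.76 and -0.62 in the control males, -0.97 and -0.69 in the NEKO females, and -0.95 and 0.20 in the NEKO males. C1qc, the C chain, was 0.94 and 1.41 in the control females, 0.57 and 0.88 in the control males, 0.44 and 0.72 in the NEKO females, and 0.47 and 1.64 in the NEKO males. For each chain both NEKO females lay below both control females, as in 25.2% of all features, while the NEKO males were split, with replicate 5 below or near the control males and replicate 6 above all other kidneys. The differences over both sexes were 0.03 for C1qa (standard error 0.31, 95% interval -0.70 to 0.76), -0.13 for C1qb (standard error 0.30, 95% interval -0.83 to 0.57) and -0.13 for C1qc (standard error 0.31, 95% interval -0.87 to 0.60). These intervals leave room for a change of the C1q transcripts in either direction, and the data do not show that the genotypes are alike.

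C1qb, C1qc and C1qa lie next to each other on mouse chromosome 4, between the long noncoding RNA gene Gm31536 and Epha8. After centring each gene on its mean over the 8 kidneys, C1qb and C1qc differed by a root mean square of 0.048 log2 units, the smallest value among all pairs of the 10 genes. C1qa differed from C1qb by 0.145 and from C1qc by 0.170. The 300 bases around the annotated start are shown for C1qb and C1qc, the adjacent pair with the closest profiles, from RefSeq on GRCm38.p6, with the core motif of PU.1, a transcription factor needed for macrophage development, in capitals (GAGGAA, or TTCCTC where it lies on the other strand). The C1qb window is chr4:136886151-136886450 on the minus strand, and the C1qc window is chr4:136892865-136893164 on the minus strand.
C1qb: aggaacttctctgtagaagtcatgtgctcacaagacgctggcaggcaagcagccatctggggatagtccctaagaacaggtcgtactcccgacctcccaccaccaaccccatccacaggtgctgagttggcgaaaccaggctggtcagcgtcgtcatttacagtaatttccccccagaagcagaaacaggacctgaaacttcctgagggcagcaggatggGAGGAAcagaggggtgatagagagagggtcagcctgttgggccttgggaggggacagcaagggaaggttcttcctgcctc
C1qc: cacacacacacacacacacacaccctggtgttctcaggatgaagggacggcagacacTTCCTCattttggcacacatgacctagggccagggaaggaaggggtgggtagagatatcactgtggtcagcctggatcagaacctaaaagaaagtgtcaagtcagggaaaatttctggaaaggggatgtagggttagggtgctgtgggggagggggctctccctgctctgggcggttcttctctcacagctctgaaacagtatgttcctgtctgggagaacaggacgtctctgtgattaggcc

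Windows were found in the RefSeq promoter table for 7 of the 10 genes, C1qb, C1qc, Mrc1, Cx3cr1, Cd163, Mertk and Mpeg1, and not for C1qa, Csf1r and Adgre1. The PU.1 core, searched on both strands, was present in 3 of the 7, in C1qb at position -30 from the start, in C1qc at position -193, and in Mrc1 at 3 places. It was present in 28.3% of all 32851 windows of that length. The letters TGACNNNGC, the core of the antioxidant response element through which Nrf2 acts, were found in 1 of the 7, C1qb, at position -103, and in 12.4% of all windows. The 2 motifs did not overlap in the C1qb window. These matches are descriptions of the letters in the windows only.

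Adgre1, the classical surface marker of mouse macrophages, followed the C1q chains. It was -0.45 and 0.16 in the control females, -0.47 and -0.61 in the control males, -0.73 and -0.04 in the NEKO females, and -0.51 and 0.74 in the NEKO males. NEKO replicate 6 was again the highest kidney, and the other 3 NEKO kidneys lay within or just below the control range. The difference was 0.21 (standard error 0.34, adjusted p = 0.768 from limma). A second Adgre1 probe, well above background on 1 array, did not pass the filter and gave 0.10 in females and -1.68 in males.

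Csf1r, the receptor on which macrophage survival rests, was on its brightest probe the only member that was higher in NEKO females and lower in NEKO males. On its brightest probe it was 0.49 and 0.85 in the control females, 0.96 and 0.95 in the control males, 0.95 and 0.98 in the NEKO females, and 0.20 and 0.37 in the NEKO males. Both NEKO females thus lay above both control females, and both NEKO males lay below both control males. A separation in opposite directions in the sexes was seen in 1 of the 10 genes and in 5.97% of all features. The difference over both sexes was -0.19 (standard error 0.21, adjusted p = 0.645 from limma), with 0.29 in females and -0.67 in males.

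A second Csf1r probe was well above background on all 8 arrays. It was -0.96 and -0.49 in the control females, -0.23 and -0.40 in the control males, -0.59 and -0.59 in the NEKO females, and -1.44 and -1.11 in the NEKO males. The male difference on this probe was -0.96 and the female difference 0.14, so the lower level in the NEKO males was present on both bright probes, while in females the groups overlapped on the second. Another, dim probe was well above background on 4 control arrays and 1 NEKO array, and its NEKO values were lower on average in both sexes, by -0.90 in females and -0.71 in males. With the mean of the kept probes in place of the brightest, Csf1r became the single member whose groups did not overlap, with a difference of -0.47 (adjusted p = 0.201 from limma), and the female difference turned to -0.155.

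Of the scavenger and clearance receptors, Cd163, which takes up haemoglobin bound to haptoglobin, had the largest difference of the 10 with the main processing. It was -4.58 and -3.35 in the control females, -5.12 and -4.06 in the control males, -3.39 and -3.06 in the NEKO females, and -4.24 and -2.84 in the NEKO males. The probe was dim, well above background on 3 control arrays and 4 NEKO arrays, and the groups overlapped. The difference was 0.90 (standard error 0.42, 95% interval -0.09 to 1.88, adjusted p = 0.311 from limma), with 0.74 in females and 1.05 in males. Under normexp background correction it was 0.52, below Mpeg1 at 0.61.

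Mrc1, the mannose receptor, was also dim but above background on all 8 arrays. It was -3.02 and -2.81 in the control females, -3.50 and -3.23 in the control males, -3.18 and -2.83 in the NEKO females, and -2.65 and -1.96 in the NEKO males. Both NEKO males lay above every control kidney, and the NEKO females lay within the range of the controls. The difference was 0.48 (standard error 0.28, adjusted p = 0.389 from limma).

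Mertk, a receptor tyrosine kinase for the engulfment of apoptotic cells, had the smallest standard error of the 10. It was 1.78 and 1.42 in the control females, 1.42 and 1.51 in the control males, 1.71 and 1.72 in the NEKO females, and 1.63 and 1.77 in the NEKO males. Every NEKO kidney lay above 3 of the 4 controls, and control replicate 1, the K1 female without Cre, lay above all NEKO kidneys. The difference was 0.17 (standard error 0.10, 95% interval -0.06 to 0.41, adjusted p = 0.389 from limma), and without control replicate 1 it was 0.26. The groups then no longer overlapped, which follows from leaving out the only control that lay above any NEKO kidney.

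Cx3cr1, the receptor for fractalkine, was dim in all kidneys. It was -3.89 and -4.36 in the control females, -3.98 and -4.29 in the control males, -4.03 and -3.97 in the NEKO females, and -3.99 and -3.24 in the NEKO males. Of the NEKO kidneys 3 lay within the control range and replicate 6 lay above it. The difference was 0.32 (standard error 0.20, adjusted p = 0.425 from limma), and a second probe was at background on all 8 arrays.

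Mpeg1, which encodes the pore-forming phagosomal protein perforin-2, had the widest gap between the sexes. It was 0.60 and 1.04 in the control females, 0.50 and 0.53 in the control males, 0.32 and 0.94 in the NEKO females, and 1.60 and 2.26 in the NEKO males. Both NEKO males lay above all other kidneys, and both NEKO females lay below control replicate 8, a female. The difference over both sexes was 0.61 (standard error 0.36, adjusted p = 0.403 from limma). A second, dim probe, above background on 1 control array and 2 NEKO arrays, gave 1.24 in males and -0.51 in females.

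**Figure D2:**
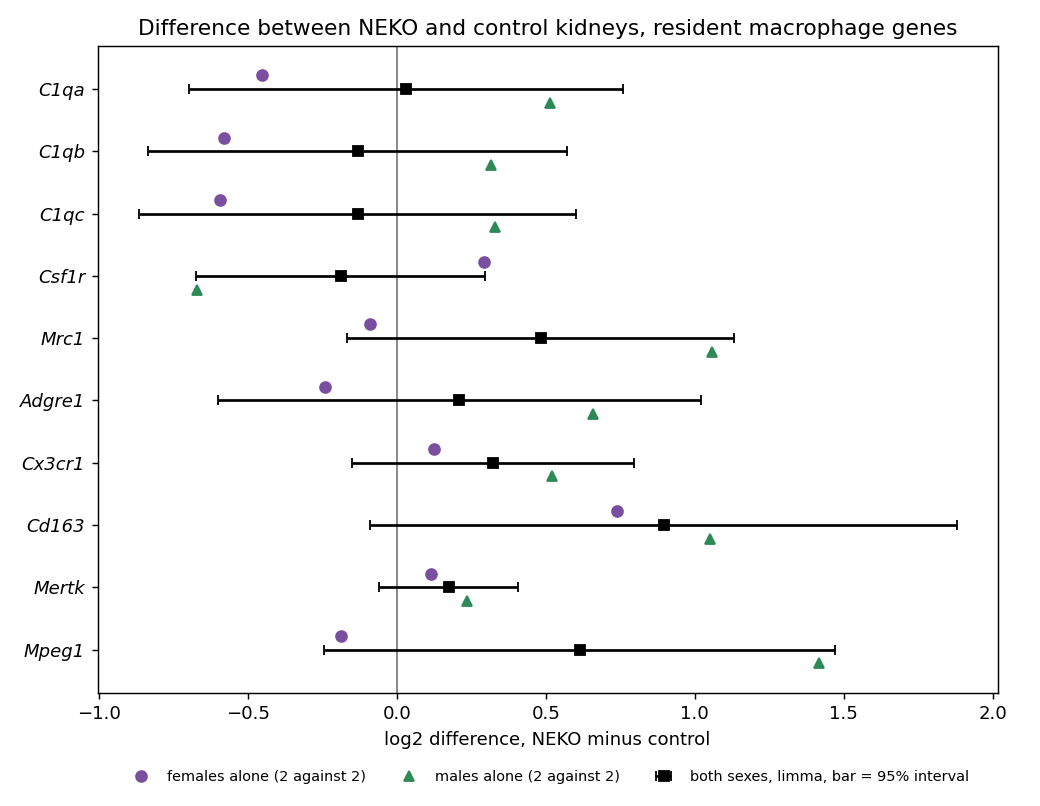
Log2 difference, NEKO minus control (x axis), for the 10 genes; black squares are the limma estimate over both sexes with its 95% interval, purple circles the 2 females against 2 females and green triangles the 2 males against 2 males. Every interval spans 0, the male difference lies to the right of the female difference in 9 genes, and Csf1r is turned the other way.

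The difference was below 0 in females and above 0 in males for 6 of the 10 genes (C1qa, C1qb, C1qc, Mrc1, Adgre1 and Mpeg1), against 20.1% of all features, and the reverse for Csf1r alone, on its brightest probe, against 18.1%. In males the mean of the NEKO kidneys was above that of the controls in 9 of the 10 genes, all but Csf1r, against 45.8% of all features. In females it was above in 4, Csf1r, Cx3cr1, Cd163 and Mertk, against 43.8% of all features. The median difference over the 10 genes was 0.52 in males and -0.14 in females, beside -0.03 in each sex over all features. The male difference exceeded the female difference by 1.61 for Mpeg1 (standard error 0.43, adjusted p = 0.24 from limma) and by 1.15 for Mrc1 (standard error 0.36, adjusted p = 0.319 from limma). For Csf1r it was lower, at -0.96 (standard error 0.21, adjusted p = 0.157 from limma). No member passed the threshold for an interaction of sex and genotype, which 0.0153% of all features did. The 3 genes named were those at an unadjusted interaction p under 0.05, a mark that 10.5% of all features reached. Each sex holds 2 mice of each genotype, and sex is also the slide.

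For C1qa, C1qb, C1qc, Adgre1, Cx3cr1 and Cd163 only replicate 6 of the NEKO males lay above both control males. Both NEKO males lay above both control males for Mrc1, Mertk and Mpeg1, as in 24.1% of all features. Both lay below them for Csf1r, as in 28.4%. NEKO replicate 6 was the highest of the 8 kidneys for 8 of the 10 genes, all but Csf1r and Mertk, and for 12.5% of all features with a value on every array. It exceeded the other NEKO male, replicate 5, in all 10 genes, with a median excess of 0.93 beside -0.03 over all features. The gap between the 2 NEKO males was 1.10 for C1qa, 1.15 for C1qb, 1.17 for C1qc and 1.25 for Adgre1, and only 0.14 for Mertk and 0.17 for Csf1r. Over the 10 genes the gap between the 2 mice ran from 0.0099 (Csf1r) to 1.06 (Cd163) in the control males, from 0.15 (C1qa) to 1.23 (Cd163) in the control females, and from 0.016 (Mertk) to 0.68 (Adgre1) in the NEKO females.

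Without NEKO replicate 6 the differences over both sexes became -0.29 for C1qa, -0.45 for C1qb, -0.46 for C1qc and -0.13 for Adgre1, while Mrc1 stood at 0.23, Mpeg1 at 0.32, Cx3cr1 at 0.13 and Cd163 at 0.58. The median over the 10 genes was then 0.004. None was called without that kidney. Summed levels of some other cells' markers also lay above the controls in the same kidney. The 8 pan-leukocyte genes, such as Ptprc, summed to 3.55 there against 2.56 to 3.03 in the controls, and the 3 tested neutrophil genes summed to 0.69 against -2.22 to -0.91. In NEKO replicate 5, where the C1q chains were low, these sums were 3.33 and 2.74. For monocyte genes all 4 NEKO kidneys lay above the controls, at 5.98 to 6.32 against 5.71 to 5.97, with replicate 6 the highest. That sum rested largely on Ly6c2, the brightest gene of the list, with a mean of 5.74 in controls and 6.00 in NEKO kidneys. Ly6c2 alone was higher in every NEKO kidney than in every control, as were 3.88% of all features. The mean log2 level of the 6 monocyte genes was -1.52 and -1.61 in the NEKO females, below the controls at -1.35 to -1.07. In the NEKO males it was -0.56 and -0.93, above them. Vcan, at background in every NEKO kidney, enters that mean. For lymphocyte genes both NEKO females lay below the controls, at -0.86 and -0.83 against -0.51 to -0.017. Both NEKO males lay above the controls for these genes, at 0.20 and 0.22. Both lay below the controls for kidney tissue genes, at 9.03 each against 9.07 to 9.29. NEKO replicate 6 lay within the controls for dendritic cell genes (0.63 against 0.47 to 0.95) and endothelial genes (4.54 against 4.45 to 4.72). The part of these cells in the member values was not tested.

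**Figure D3:**
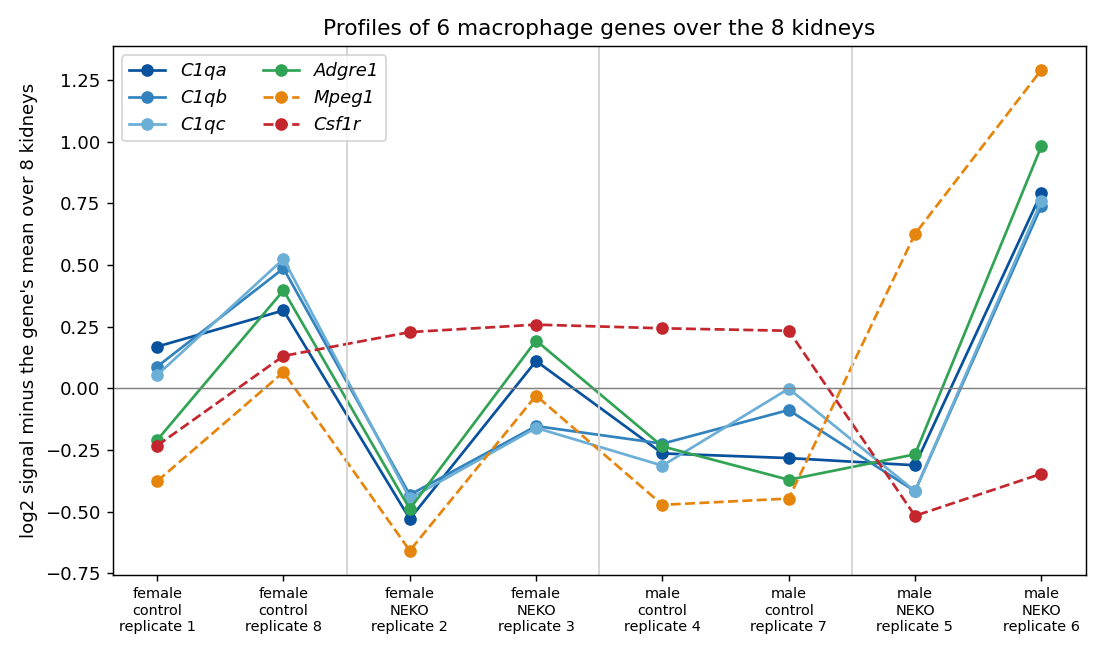
Level of 6 of the genes in each kidney minus the gene's own mean over the 8 kidneys (y axis, log2), with the kidneys ordered by sex and genotype (x axis) and 1 line for each gene. The C1q chains and Adgre1 run together and peak in NEKO replicate 6, Mpeg1 is high in both NEKO males, and Csf1r is low in both.

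The genes whose centred profile lay nearest to the mean of the C1q chains, among 13512 named genes with a value on all 8 arrays, were Ly86 at a root mean square difference of 0.109, Arhgap9 at 0.126, Il2rg at 0.142, Rnase6 at 0.145 and H2-Aa, an MHC class II chain, at 0.147. Among the other members Adgre1 came closest, at 0.191 and rank 17, followed by Mrc1 at 0.318 and rank 423. Csf1r at 0.552 and Cd163 at 0.648 were far from the C1q profile, at ranks 10848 and 11937. The C1q mean itself stood, relative to its average, at 0.76 in NEKO replicate 6 and at -0.47 in NEKO replicate 2.

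The ligands and partners of these receptors and complement chains were read as a further list of 14 genes, all of them tested. None was called, and the median difference was 0.17. At an unadjusted p under 0.05 in limma 3 were higher and 1 was lower, a mark that 18% of all features reached. Csf1, a ligand of the CSF1 receptor, differed by 0.07, and Il34, its other ligand, by -0.35. Cx3cl1, which encodes fractalkine, was 3.43 ± 0.22 (SD, n = 4) in controls and 4.07 ± 0.44 (SD, n = 4) in NEKO kidneys, a difference of 0.64 (adjusted p = 0.202 from limma). Gas6, a bridging ligand of MERTK, differed by 0.09. Tyro3, a kinase related to MERTK, was lower in every NEKO kidney than in every control, at -2.08 ± 0.31 against -1.21 ± 0.35 (SD, n = 4 each), a difference of -0.87 (adjusted p = 0.139 from limma), and it stood at -0.11 with the mean of its kept probes in place of the brightest. In 9.27% of all features the groups did not overlap, in either direction. Serping1, the inhibitor of the C1 complex, differed by 0.67 (adjusted p = 0.226 from limma), and Mrc2, a relative of the mannose receptor, by 0.66 (adjusted p = 0.199 from limma).

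Of 24 other macrophage genes, 20 were tested and none was called. Their median difference was 0.19, the same as for the 10 genes, with -0.15 in females and 0.60 in males. At an unadjusted interaction p under 0.05 were 13 of the 20, against 10.5% of all features, with none past the adjusted threshold. Slc11a1, a phagosomal metal transporter, lay higher in every NEKO kidney than in every control, with a difference of 1.56 (standard error 0.41, adjusted p = 0.149 from limma). Such a separation was seen in 1 of the 20 genes and in 3.88% of all features. Lyz2, lysozyme, differed by 1.38 (adjusted p = 0.272 from limma) and by 0.91 without NEKO replicate 6, Ms4a7, a macrophage membrane protein, by 1.33 (adjusted p = 0.25 from limma), and Cd84, well above background on 1 control array and 3 NEKO arrays, by 1.45 (adjusted p = 0.393 from limma) and by 0.62 under normexp. The remaining 16 ran from -0.43 to 0.89. Cd68 had no probe named here, and Spi1, Siglec1 and Timd4 had no probe that passed the filter.

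Macrophages in injured or lipid-laden tissue are known to take on a further set of genes. Clec4d and Clec4n, lectins on this list, were reported by the study to be higher also in collecting duct cells isolated from NEKO mice. The study proposes both as direct targets of Nrf2. Which cells carried the listed transcripts in these whole kidneys was not tested. Of 12 listed, 8 passed the filter, Clec4d among them through the NEKO arrays alone, and none was called. The list median was 0.43, with Clec4d included. Apart from Clec4d, Trem2, Clec4n and Lgals3 were higher at an unadjusted p under 0.05 in limma, which 18% of all features reached in either direction. Lgals3 differed by 0.42, whereas Spp1 differed by -0.003, Cd9 by -0.07 and Lpl by -0.30. Trem2 and Clec4n were also higher in every NEKO kidney than in every control, as were 3.88% of all features. Clec4n, which encodes dectin-2, was -4.23 ± 0.19 in controls and -1.48 ± 1.13 in NEKO kidneys (SD, n = 4 each), with an adjusted p of 0.0652 from limma. Trem2, a lipid-sensing receptor, was -3.59 ± 0.54 in controls and -0.82 ± 1.53 in NEKO kidneys (SD, n = 4 each), with an adjusted p of 0.125 from limma. Clec4d, a lectin of the same gene cluster as Clec4n, was at background in every control and above it in each of the 4 NEKO kidneys, which puts the NEKO mean at least 6.02-fold higher. It passed the filter through the NEKO arrays alone, so no test is given for it. The fold is a bound, because a control at background has no measured level: whichever was larger, its own signal or the dimmest detected probe of that array, stood in for it. It does not hold under normexp, where the difference was 1.44 on the log2 scale. The difference between these 3 genes and the resident genes was not tested, and Itgax, of the same list, differed by 0.45 (-0.68 in females and 1.57 in males), and by 0.07 to 0.87 when each mouse was left out.

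**Figure D4:**
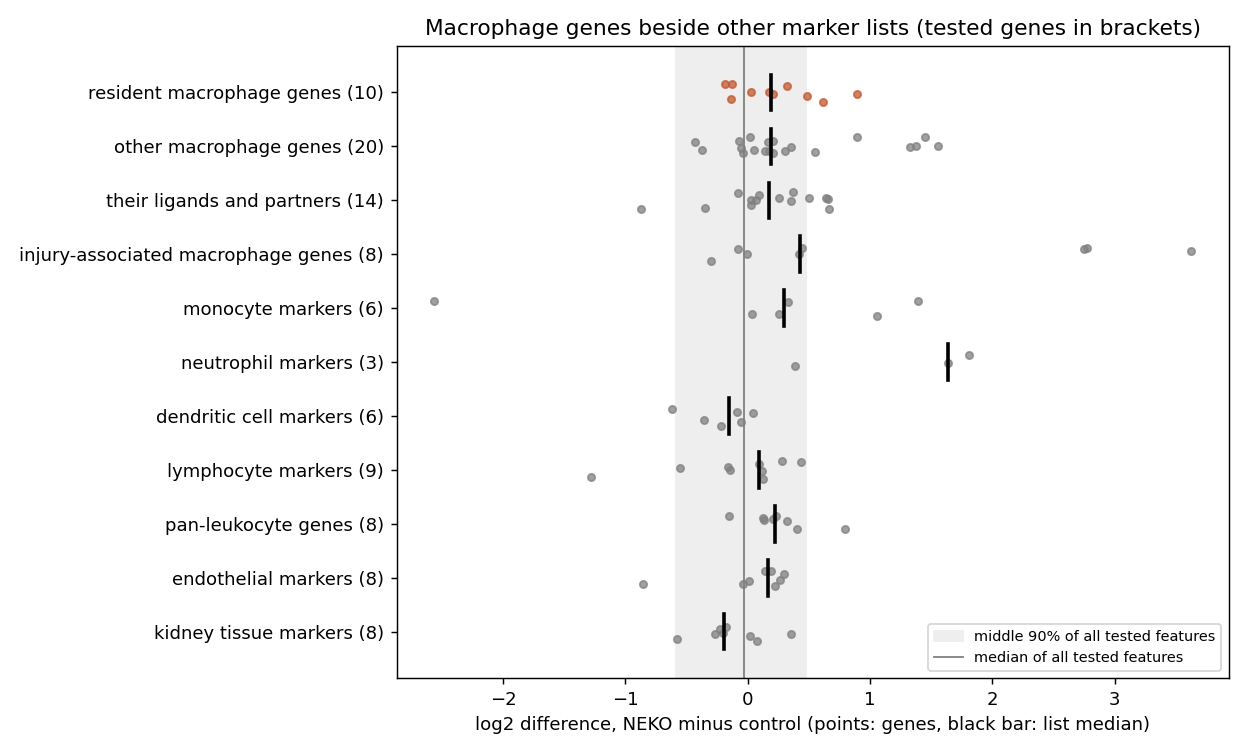
Log2 difference, NEKO minus control (x axis), of every tested gene in the resident macrophage list (orange) and in 10 other lists (grey), with the list median as a black bar, the number of tested genes in brackets, the grey band covering the middle 90% of all features and the grey line their median. The 10 resident genes run from -0.19 to 0.90, and 3 genes of the injury-associated list lie beyond 2.7; Clec4d and Vcan are drawn at fitted values although 1 of their groups was at background.

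Lists for other cells were read beside the 10 genes, and no gene of these lists was called. Of 7 monocyte genes 6 were tested, with a median of 0.29. F13a1 differed by 1.40 (0.71 under normexp), Chil3 by 1.06 (0.52 without NEKO replicate 5) and Ccr2 by 0.33 (0.14 without NEKO replicate 6). Vcan, well above background in all 4 controls and in no NEKO kidney, was at least 2.4-fold lower in NEKO kidneys. It passed the filter through the controls alone, so no test is given for it, and the bound does not hold under normexp, where the difference was -0.65 on the log2 scale. Of 10 neutrophil genes only S100a8, S100a9 and Ltf were tested, with differences of 1.81, 1.64 and 0.39. S100a8 was well above background on 1 control array and 3 NEKO arrays and stood at 0.91 under normexp, and without NEKO replicate 5 the differences were 1.18, 0.98 and 0.18. Of the neutrophil genes not tested, Retnlg was well above background on 3 arrays, and Csf3r, Cxcr2, Mmp8, Ngp and Camp on 1 array each. Ly6g had no probe named here.

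Dendritic cell genes, 6 of 10 tested, had a median of -0.15. Batf3 differed by -0.61, Itgae by -0.36, Flt3 by -0.22 and Xcr1 by -0.09. Lymphocyte genes, 9 of 12 tested, had a median of 0.10, with Cd8a at -1.28 (-0.78 under normexp) and Klrb1c, well above background on 3 control arrays and 1 NEKO array, at -0.55 (-0.07 under normexp). Ms4a1 stood at 0.43 and Cd3g at 0.28, and when each mouse was left out they ran from 0.09 to 0.74 and from 0.01 to 0.48. Cd4, Cd79a and Ncr1 were not well above background on any array. Endothelial genes, 8 of 9 tested, had a median of 0.17, with Stab2 at -0.86 (adjusted p = 0.112 from limma), Flt4 at 0.30, Tie1 at 0.26 and Cdh5 at 0.23. The 8 kidney tissue genes had a median of -0.19, with Slc12a3 at -0.57, Nphs1 at 0.35, Umod at -0.27 and Aqp2 at -0.22.

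The 8 pan-leukocyte genes, which mark all white blood cells, had a male difference above the female difference in every gene. Their median difference was 0.22 over both sexes, -0.50 in females and 0.89 in males. All 8 were at an unadjusted interaction p under 0.05, against 10.5% of all features, with none past the adjusted threshold. Lcp1 had the largest difference, 0.79 (adjusted p = 0.119 from limma), and was higher in every NEKO kidney than in every control, as were 3.88% of all features. Arhgdib differed by 0.40, Cd53 by 0.33 and Laptm5 by 0.23, and without NEKO replicate 6 Cd53 and Laptm5 stood at 0.005 and 0.002. Summed over the list, the NEKO kidneys ran from 2.62 to 3.55 and the controls from 2.56 to 3.03. For the 10 resident genes the sums ran from 3.31 to 4.15 in NEKO kidneys and from 3.30 to 3.68 in controls. The part of white blood cells in the member values was not tested.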

How the data were processed

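The files the authors deposited were Agilent Feature Extraction output (version 10.7.3.1) with spot intensity in several forms: a processed signal from which background was subtracted, and a raw median signal with its local background. A deposited log2 matrix was found to hold the processed signal relative to each array's 75th percentile and centred on each probe, with column medians of -0.0384 to 0.076. The study's methods name an unpaired comparison without equal variances, and the normalization of the arrays is not given in the sources used here. Outlier spots (73 to 172 of 43379 per array) were left out, spots of a probe averaged, and probes kept when well above background on at least 4 of 8 arrays and measured on at least 6. The brightest kept probe stood for a gene. Probes were named through RefSeq (GRCm38.p6): 26682 of 41174 matched, to 18213 genes. Coordinates of the array design (mm9) were not used. limma 3.58.1 (R 4.3.3) fitted genotype and sex, and sex by genotype in a further model. The fit was tested on simulated data. Exact two-sided permutation of 4 mice against 4 cannot go below p = 0.0286, and its lowest value among the 10 genes was 0.143. The number of arrays limits the precision.

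The genes and the other lists were chosen with earlier results of these data known. Named were all 10 genes, Keap1, and of each other list the called genes, or otherwise at most 4 with the largest difference, with the 5 profiles nearest to C1q. Csf1, Il34 and Gas6 were named as ligands, Lrp2 and Ptprc as examples, Ly6c2 for its part in the monocyte sum, and Lgals3 for its unadjusted p. Spp1, Cd9 and Lpl were named as the rest of the list that holds Lgals3. Alternatives were a normexp correction (offset 50) on the median signal, quantile normalization, median scaling, other filters, the mean of the probes, other model terms, the methods' unpaired comparison, the authors' matrix, and leaving out each mouse.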

Additional observations from a re-analysis of the deposited data

Results flagged for a closer look

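Cx3cr1 in NEKO replicate 6 stood apart from the other NEKO kidneys. Its gap to the nearest of them was 0.931 of the whole range of the group, above the critical value of Dixon's test for 4 samples. Of the 20 groups of 4 looked at, 2 for each of the 10 genes, it was the single one, and chance alone gives about 1 in 20.

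On the brightest Csf1r probe the effect of genotype ran in opposite directions in the sexes, with a male minus female effect of -0.963. Every NEKO female lay above both control females and every NEKO male below both control males. The interaction did not pass the threshold after adjustment (adjusted p = 0.157 from limma). With the mean of the 3 kept probes the female effect was -0.155 and the male effect -0.781, so the direction in females turned.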

How the results depend on the processing

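No paired analysis was possible because the groups share no replicate numbers. The slide as a block was not run, since slide and sex are the same split. The count of resident genes called was 0 in all 21 alternatives (of 9 genes with detection on all 8 arrays, where Cd163 was not kept), and the count past the interaction threshold 0 in all 17. The count whose groups did not overlap was 0 except for 1 with the mean of the kept probes (Csf1r), and 0 to 1 when each mouse was left out, with Mertk the 1 without control replicate 1. The resident genes at an unadjusted p under 0.05 numbered 0 to 2, with 2 when the effect was averaged over the sexes and without NEKO replicate 2 (Mrc1 and Mpeg1), without NEKO replicate 6 (C1qb and C1qc) and without control replicate 8 (Cd163 and Mpeg1), beside 19.7%, 18.4%, 13.4% and 17.8% of all features in those 4 settings. The C1qa difference was -0.011 with array weights. When each mouse was left out, C1qa ran from -0.29 to 0.25, C1qb from -0.45 to 0.038, C1qc from -0.46 to 0.054, Adgre1 from -0.13 to 0.44, Csf1r from -0.36 to -0.06, Mrc1 from 0.23 to 0.67, Cx3cr1 from 0.13 to 0.46, Cd163 from 0.58 to 1.17, Mertk from 0.11 to 0.26 and Mpeg1 from 0.32 to 0.90. The male minus female effect ran from -0.39 to 1.01 for Cd163 and from -0.061 to 0.30 for Mertk. Flt3 and Xcr1 stood at 0.016 and 0.027 under normexp, and ran from -0.51 to 0.0046 and from -0.26 to 0.12 when each mouse was left out. The median over the 10 genes ran from 0.004 to 0.31.

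The count of all features called was 44, and it was 182 under normexp, 20 with detection on all 8 arrays, 513 with the effect averaged over the sexes, 93 with trend and robust, 98 with array weights, 1 under the methods' comparison with adjustment and 2212 without, and 17 to 41 when each mouse was left out. With the effect averaged over the sexes Clec4n, Trem2, Slc11a1, Serping1, Mrc2 and Lcp1 were called. Clec4d, which passed the filter through the NEKO arrays alone, is left out here. Without control replicate 8 F13a1 was called, at 2.02. The cause of these shifts was not tested. Cd163, Mrc1 and Cx3cr1 are dim, and their differences were smaller under normexp.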
